A study of Homo sapiens with 12 samples.

Results

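The mRNAs of 10 genes of the eIF4 group were followed through polysome profiling of H1299 cells, an established human line from a non-small-cell lung carcinoma. The members were chosen by name, as genes of this family, and the rule used no measured value. Earlier results of these data were known when the choice was made. They are the cap-binding genes EIF4E and EIF4E2, the inhibitor EIF4EBP1, the scaffold genes EIF4G1, EIF4G2 and EIF4G3, the helicase genes EIF4A1 and EIF4A2, and the helicase cofactors EIF4B and EIF4H. All 10 were among the 16172 genes of the deposited table, and all 10 passed the filter of a mean of at least 1 TPM that left 10605 genes for testing. Cells received either a control siRNA (siCtrl) or mixed siRNAs that target EIF3G (siEIF3G) and were lysed after 72 h. Input RNA came from 10% of the lysate volume, and polysomal RNA came from the polysome fraction of a 10% to 50% sucrose gradient. The 12 libraries form 4 groups of 3: input and polysomal RNA of siCtrl cells, and input and polysomal RNA of siEIF3G cells. All groups were transfected H1299 cells, a single line, and both siRNAs against EIF3G were given together, so they cannot be told apart. The labels do not say whether replicates were separate cultures, so p-values measure only the spread between these libraries, which may be technical. TPM, the usual transcript unit scaled to an equal total in every library, is a share of a library, corrected for transcript length, and the number of reads behind it is unknown. A share of polysomal RNA is relative to all other polysomal mRNAs, so fewer ribosomes on an mRNA and a change in the rest of the fraction cannot be told apart.

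The 2 siRNAs that define the knockdown groups are shown first, 5′ to 3′, as the labels give them.
siEIF3G-4: gaacaaactcaagggccagaa
siEIF3G-5: gaggtcatcaacggaaacata
Both are 21 bases long, and their target, EIF3G, encodes a subunit of eIF3, the complex that joins mRNA to the small ribosomal subunit.

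Most mRNAs in human cells are recruited to ribosomes through eIF4F, a complex of the cap-binding protein eIF4E, the scaffold eIF4G and the RNA helicase eIF4A. eIF4E holds the cap, eIF4A unwinds structure in the leader of the mRNA with the help of eIF4B or eIF4H, and eIF4G bridges them to the eIF3 complex and to poly(A)-binding protein. The 4E-BP proteins, of which EIF4EBP1 encodes the best studied, compete with eIF4G for eIF4E until mTOR kinase phosphorylates them.

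The RefSeq annotation (GRCh38.p14) places EIF4A1 on chromosome 17 (7572825 to 7579006), EIF4A2 on chromosome 3 (186783577 to 186789897), EIF4B on chromosome 12 (53006456 to 53042215) and EIF4E on chromosome 4 (98879276 to 98929133). EIF4E2 lies on chromosome 2 (232550689 to 232583644), EIF4G1 on chromosome 3 (184314606 to 184335358) and EIF4G2 on chromosome 11 (10797046 to 10808926). EIF4G3 lies on chromosome 1 (20806292 to 21176897) and EIF4H on chromosome 7 (74174356 to 74197096). These are whole-gene spans, and each value below sums all transcripts of a gene. Promoter windows of 250 bases before the annotated start were searched on both strands for the E-box CACGTG, the palindrome bound by MYC and related factors, because MYC is known as a regulator of several eIF4 genes. Of the 9 members with a window, 4 held it (EIF4B, EIF4E, EIF4G1 and EIF4H), and 6.34% of all 35116 windows did. Members were counted by gene and the background by window, and a gene may have more than 1 window. These are unlike measures, so no enrichment is read from them. The E-boxes are printed with their flanks on the gene's strand, the motif in capitals, so that the shared letters can be read.
EIF4E, chr4:98929180-98929225, minus strand: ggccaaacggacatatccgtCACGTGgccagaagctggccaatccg
EIF4E, chr4:98929333-98929378, minus strand: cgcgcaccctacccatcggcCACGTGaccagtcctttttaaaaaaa
EIF4G1, chr3:184314442-184314487, plus strand: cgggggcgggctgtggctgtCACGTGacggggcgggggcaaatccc
EIF4G1, chr3:184314519-184314564, plus strand: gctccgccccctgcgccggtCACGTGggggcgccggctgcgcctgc
EIF4B, chr12:53006414-53006455, plus strand: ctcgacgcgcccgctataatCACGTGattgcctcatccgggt
EIF4H, chr7:74174137-74174182, plus strand: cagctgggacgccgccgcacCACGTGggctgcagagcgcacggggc
EIF4E and EIF4G1 held the motif at 2 positions each, and the one nearest to a start, 16 bases away, was that of EIF4B. The TATA motif TATAAA, searched on both strands of the same windows, was present in EIF4A2 among the members, again counted by gene, and in 10.7% of all windows. A match describes letters only, and binding was not measured in these samples.

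The knockdown was visible in the targeted gene in both fractions. EIF3G fell from 1043 ± 147 TPM (SD, n = 3) to 64.3 ± 19.0 TPM in input RNA, and from 1800 ± 118 to 115 ± 39.9 TPM in polysomal RNA (n = 3 each), which left 6.16% and 6.38% of the control level. The H1299 markers KRT8, KRT18 and VIM were present, at lowest 108, 435 and 265 TPM. The cadherin gene CDH1 was at most 0.04 TPM and CDH2 at 0.15 to 6.83 TPM. Of 6 marker genes of other cell types followed here, 5 (PECAM1, VWF, ALB, COL1A1 and DCN) stayed at or below 0.23 TPM, and CD68 ranged from 59.0 to 132 TPM. Before any result, 3 libraries stand apart: siCtrl input 1, siEIF3G input 2 and siEIF3G polysomal 3 correlated better over all genes with the other fraction of the same siRNA (0.957, 0.958 and 0.953) than with their own group (0.922, 0.928 and 0.949). The members moved with this: 9 of the 10 had their group's lowest value in siCtrl input 1, 9 in siEIF3G input 2, and all 10 had their group's highest value in siEIF3G polysomal 3. In siCtrl input 3, too, 9 members were at their group's highest. The part of this spread in the results was not tested, and results are given with and without those libraries where the call differs.

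**Figure D1:**
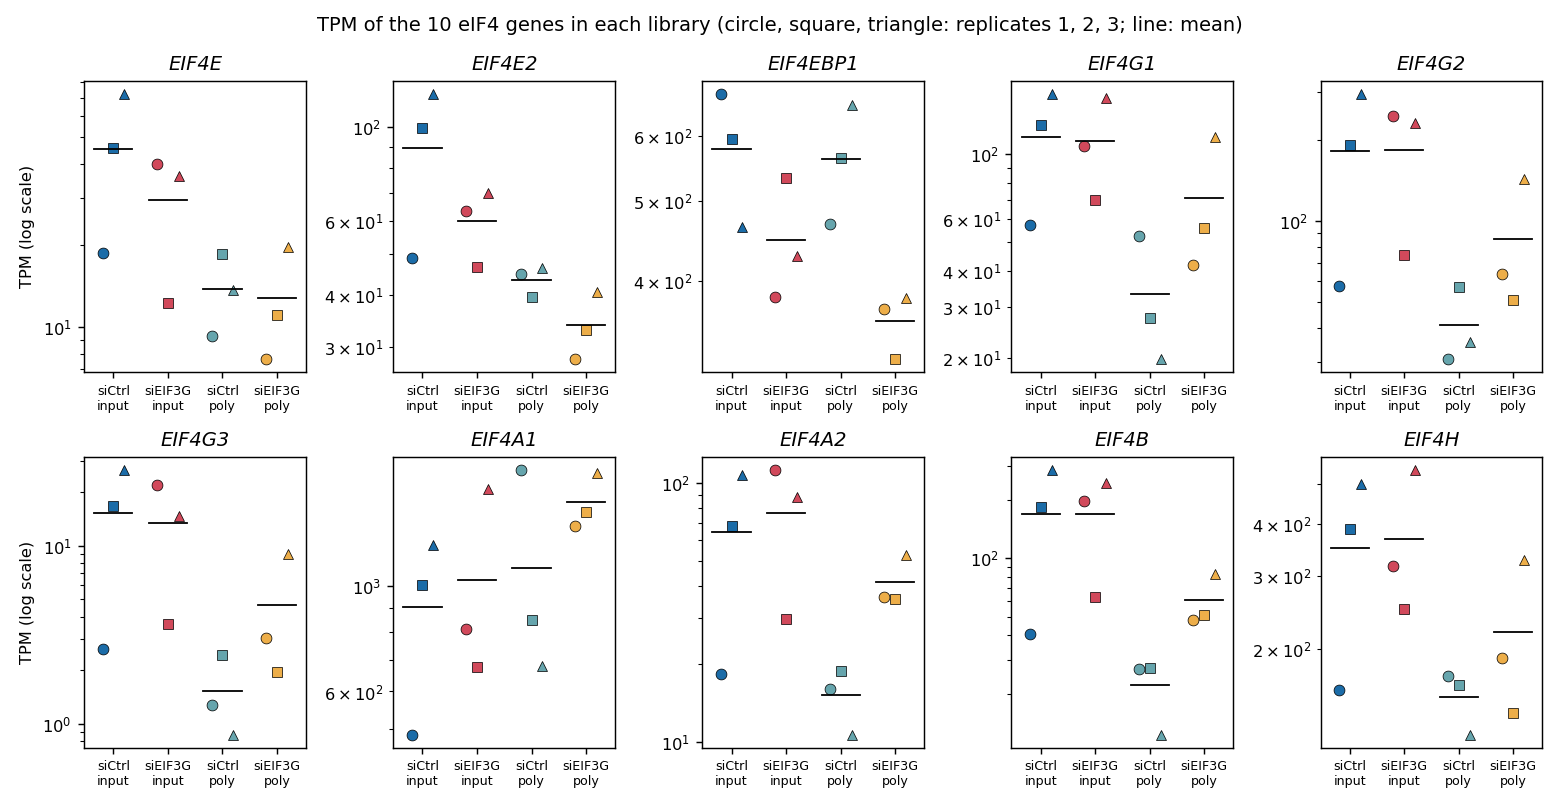
TPM of each member (vertical axis, log scale, a separate range for each gene) in the 3 libraries of each group (horizontal axis; poly is polysomal RNA; lines are group means). EIF4B in siCtrl polysomal RNA lies between 12.3 and 27.3 TPM, below all 3 siCtrl input values, whereas the EIF4EBP1 values of the siCtrl fractions lie in the same range.

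Together the 10 mRNAs took between 0.156% and 0.340% of a library. EIF4A1 had the highest group mean of the 10 in all 4 groups (904 to 1500 TPM), EIF4EBP1 the second (357 to 578 TPM) and EIF4H the third (153 to 370 TPM), and EIF4G3 had the lowest (1.53 to 15.3 TPM). EIF4E, whose product is often described as limiting for cap binding, was at rank 9 of the 10 in each group, at 12.8 to 45.5 TPM. The order was not sharp: in siCtrl input RNA the ranges of all 9 neighbouring pairs overlapped, and in siEIF3G input RNA 6 of 9 did. In siCtrl polysomal RNA EIF4A1, EIF4EBP1, EIF4H and EIF4E2 followed one another with no overlap. EIF4E2 was at rank 7 in siCtrl input and rank 4 in siCtrl polysomal RNA, and EIF4B at rank 5 and rank 7. EIF4A1 alone made up a large part of the summed TPM of the members, with 31.1% to 46.9% in input libraries and 42.5% to 68.0% in polysomal ones. Across the 12 libraries, which share the fraction effect and the spread described above, EIF4G2 and EIF4G3 followed each other most closely (Pearson r of log2(TPM + 1) 0.99), followed by EIF4A2 and EIF4B (0.97). EIF4A1 stood apart from the others (r from -0.71 with EIF4EBP1 to 0.36 with EIF4G1), and so did EIF4EBP1 (r from -0.71 to 0.28).

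The first question the fractions address is which mRNAs sit on polysomes, relative to their level in the cell. In control cells most eIF4 mRNAs had a lower share of polysomal RNA than of input RNA, with EIF4B and EIF4G3 farthest down, while the EIF4A1 and EIF4EBP1 differences had 95% intervals on both sides of 0 (-0.65 to 1.15 and -0.51 to 0.44). On log2(TPM + 1), 7 of the 10 members were lower in polysomal RNA at a limma adjusted p under 0.05 and 0 were higher. Of all genes tested, 36.9% were called, 28.9% lower and 7.98% higher. The median difference of the members was -1.62 against -0.96 for all genes, so a lower polysomal share was the common case in this table. Of the 10 members, 6 were lower with no overlap between the groups (all genes, either direction, 45.8%).

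In knockdown cells 9 of 10 member differences had the same sign as a lower polysomal share, but 0 of 10 passed the test, and 1 had an unadjusted p under 0.05 (EIF4E2, -0.80, limma adjusted p = 0.201). Among all genes 3.14% were called here, 1.33% lower and 1.81% higher. EIF4E2 and EIF4EBP1 were the 2 members whose groups did not overlap, both lower in polysomal RNA (all genes, either direction, 22.1%). The median was -0.78 for the members and -0.49 for all genes. Whether the fraction difference itself changed with knockdown is tested as the loading change below, and neither siRNA group is shown to differ from the other by passing or missing a threshold.

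**Figure D2:**
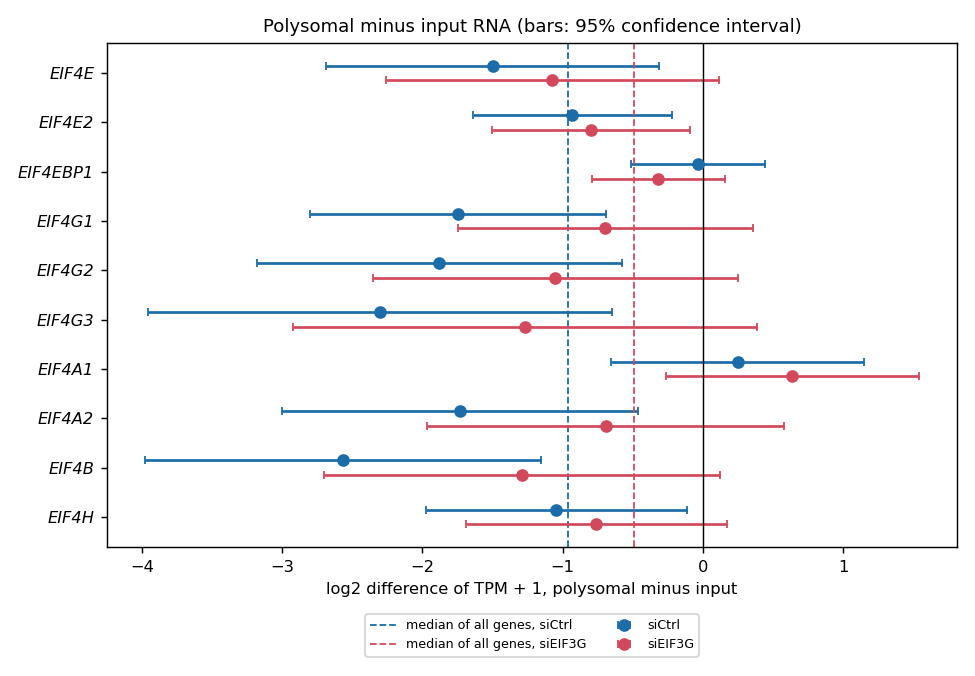
Difference of log2(TPM + 1), polysomal minus input (horizontal axis), for each member in siCtrl and siEIF3G cells, with 95% confidence intervals from limma; dashed lines are medians of all genes tested. In siCtrl cells EIF4B (-2.56) lies farthest to the left, and EIF4A1 (0.25) and EIF4EBP1 (-0.04) lie to the right of the all-gene median.

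The calls in control cells rested on the choice of libraries, scaling, filter and model. With no filter on low values, or with only the siCtrl libraries in the fit, 0 members passed, with a pseudocount of 5 TPM 2 did and with the replicate number as a block 3 did. Of all genes, these fits called 1256 (of 16172), 610, 1408 and 2121 (of 10605 each), in that order. With siCtrl polysomal 1, 2 or 3, or siCtrl input 2 or 3, left out, 0 members passed. Those fits called 130 to 273 of the 10605 genes. With siCtrl input 1 left out 8 members passed, EIF4H being the addition, and 7185 of the 10605 genes were called. The fit shares its spread with the siEIF3G libraries, and without siEIF3G polysomal 1 or 2 the count was 2, without siEIF3G input 3 it was 3 and without siEIF3G input 2 it was 8. These fits called 1097, 1545, 2408 and 5775 of the 10605 genes, in that order. Over these leave-outs the member count thus rose and fell with the count of all genes called. Without all 3 libraries nearer to the other fraction, 8 members were lower in polysomal RNA in siCtrl cells and the same 8 in siEIF3G cells, every member but EIF4A1 and EIF4EBP1, with 7960 and 7541 of all genes called. That choice leaves out libraries for their likeness to the other fraction, so it widens the difference between fractions by its construction. EIF4B was then at -2.13 and EIF4G3 at -2.45 in siEIF3G cells. Rescaling by median-of-ratios size factors moved the median of all genes from -0.96 to -0.10 and the lower part of all called genes from 78.4% to 42.0%, and then EIF4B and EIF4G3 were lower, EIF4A1 was higher and the other 7 members did not pass, with EIF4E2 at 0.15, on the other side of 0. Quantile normalization (46.3% of called genes lower) kept 7 members lower, with EIF4H in place of EIF4E. Of the 10605 genes, 4661 were called with size factors and 3107 after quantile normalization.

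The position of some members relative to the other genes kept its side under all settings run. Measured as the difference minus the median of all genes, EIF4B stood at -1.60, where 1.18% of genes were at or below it, and between -2.26 and -1.07 over 26 alternative settings. EIF4G3 stood at -1.34, with 2.63% of genes at or below it, and between -1.99 and -0.91 over those settings. EIF4A2 (-1.42 to -0.42), EIF4E (-1.19 to -0.25), EIF4G1 (-1.46 to -0.57) and EIF4G2 (-1.74 to -0.69) also stayed below the median. EIF4A1 was on the other side, at 1.21 above the median and between 0.22 and 1.45 over the settings. EIF4EBP1 was 0.93 above the median as deposited and 0.08 below it after quantile normalization. The fits without the trend, with robust moderation, with the replicate block or of only the groups compared could not move these estimates. Nor could leaving out 1 siEIF3G library alone, so the ranges rest on fewer than 26 settings. These positions are descriptions of the members and carry no test.

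**Figure D3:**
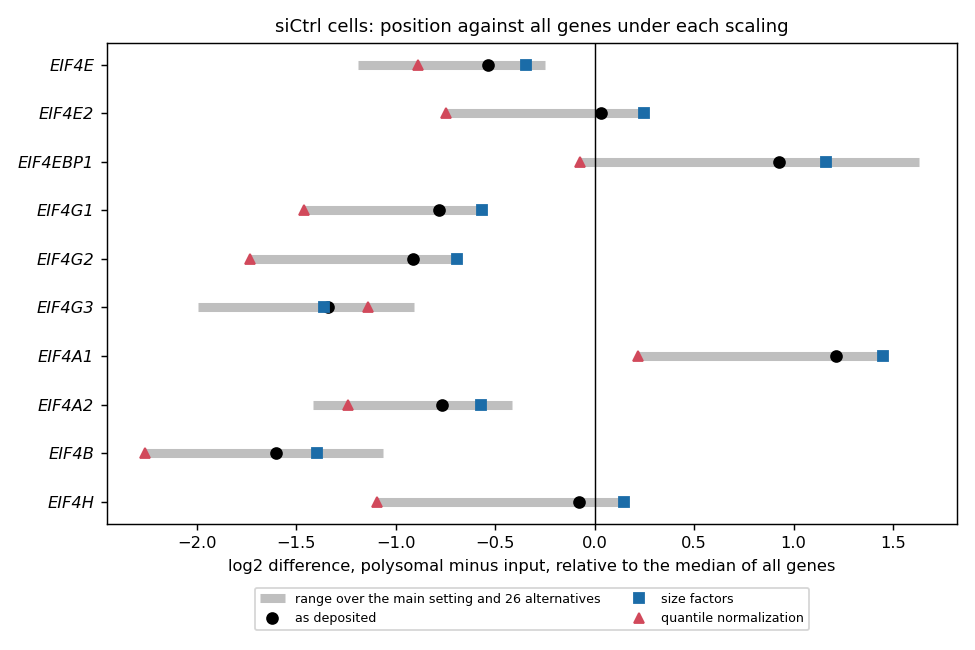
Polysomal minus input difference of log2(TPM + 1) in siCtrl cells relative to the median of all genes (horizontal axis, 0 is the median gene), for each member, from the deposited values (circles), after size factors (squares) and after quantile normalization (triangles); grey bars span all settings. EIF4B, EIF4G3, EIF4A2, EIF4E, EIF4G1 and EIF4G2 stay left of 0 under every setting drawn. EIF4A1 stays right of 0, whereas EIF4E2, EIF4H and EIF4EBP1 cross it.

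The next question is what loss of EIF3G did to these mRNAs. In input RNA 0 of 10 members passed the limma test, and 0 had an unadjusted p under 0.05, where 0.0189% of all genes (2 of 10605) were called. The member differences ran from -0.58 for EIF4E to 0.37 for EIF4A2, and 5 were positive and 5 negative. No member's groups were free of overlap, against 3.68% of all genes. The 95% intervals reached beyond 1 log2 unit on at least 1 side for 9 of the 10, so a 2-fold change in 1 direction or the other lay inside those intervals. EIF4EBP1 was the exception, with an interval from -0.84 to 0.11.

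In polysomal RNA the knockdown differences were farther from 0 than in input RNA for the members other than EIF4E and EIF4E2, with 7 positive and 3 negative, and again 0 of 10 passed (all genes 0.0189%, 2 of 10605), with limma adjusted p from 0.65 to 0.873. EIF4A2, EIF4B and EIF4EBP1 had an unadjusted p under 0.05, and these 3 were also the members whose groups did not overlap, EIF4A2 and EIF4B above control and EIF4EBP1 below it. Non-overlap was common in this comparison, at 29.2% of all genes, so 3 of 10 is close to the background. Without the 3 libraries nearer to the other fraction these differences were 1.22 for EIF4A2, 1.21 for EIF4B and -0.69 for EIF4EBP1, and 0 of 10 passed (the lowest limma adjusted p was 0.182, for EIF4A2, which ranged from 0.182 to 1 over the 26 alternatives). The median was 0.76 for the members and 0.33 for all genes. The loading change, which is the knockdown difference in polysomal RNA minus that in input RNA, passed for 0 of 10 members and for 0% of all genes (19 genes had an unadjusted p under 0.05, none of them a member). Its point estimates were positive for 9 members, with a median of 0.63 against 0.38 for all genes, and every 95% interval included 0. With size factors 5 members were positive and the median of all genes was -0.03, and without replicate 3 of every group 5 were positive.

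**Figure D4:**
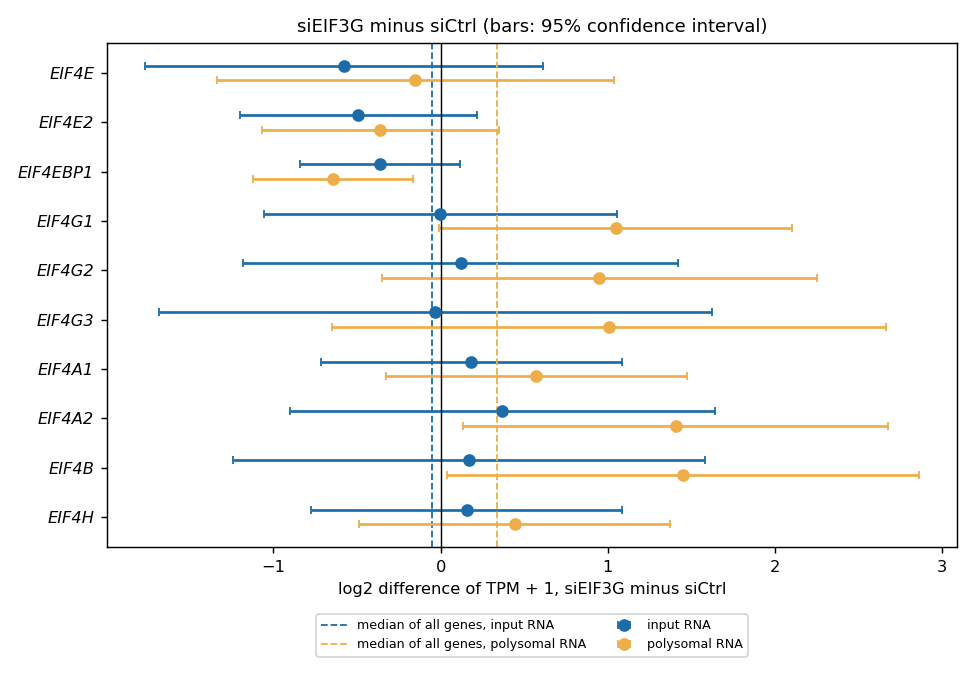
Difference of log2(TPM + 1), siEIF3G minus siCtrl (horizontal axis), in input and in polysomal RNA for each member, with 95% confidence intervals from limma; dashed lines are medians of all genes tested. The polysomal intervals of EIF4A2, EIF4B and EIF4EBP1 exclude 0 before adjustment, and no adjusted p among the 10 is below 0.65.

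EIF4E encodes the cap-binding subunit of eIF4F. Its mRNA stood at 18.7, 45.7 and 72.0 TPM in siCtrl input replicates 1 to 3 and at 9.25, 18.7 and 13.7 TPM in siCtrl polysomal RNA. All polysomal values were below the lowest input value, though siCtrl polysomal 2 missed it by a narrow margin. The fraction difference was -1.50 (SE 0.55, limma adjusted p = 0.0487), and over the 26 alternatives the call held in 7. In knockdown cells the input values were 39.9, 12.3 and 36.1 TPM and the polysomal values 7.65, 11.1 and 19.7 TPM, and the overlap lay between siEIF3G input 2 and siEIF3G polysomal 3, both among the libraries nearer to the other fraction. The knockdown differences were -0.58 (95% interval -1.77 to 0.61) in input and -0.15 (-1.34 to 1.04) in polysomal RNA.

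EIF4E2 encodes 4EHP, a cap-binding protein that does not bind eIF4G and is known as a repressor of translation. Its mRNA was at 48.9, 99.5 and 119.9 TPM in siCtrl input RNA and at 44.7, 39.5 and 46.2 TPM in siCtrl polysomal RNA, a tight polysomal group just below the lowest input library. In knockdown cells it was at 63.4, 46.5 and 70.0 TPM in input and 28.2, 33.0 and 40.7 TPM in polysomal RNA, again without overlap. The fraction difference was -0.93 (SE 0.33, adjusted p = 0.0456 by limma) in control cells and -0.80 (SE 0.33) in knockdown cells. The control difference equalled that of the median gene to within 0.03, and with size factors it was 0.15. EIF4E2 mRNA was the more abundant of the cap-binding pair in all 12 libraries, with EIF4E2 over EIF4E ratios from 1.59 to 4.84.

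EIF4EBP1 encodes 4E-BP1, which sequesters eIF4E. It was at 674, 595 and 464 TPM in siCtrl input RNA and at 469, 563 and 655 TPM in siCtrl polysomal RNA, so the control groups covered the same range, and the fraction difference was -0.04 (SE 0.22). In knockdown cells it stood at 382, 534 and 429 TPM in input and at 370, 321 and 381 TPM in polysomal RNA. Every siEIF3G polysomal library was below every other library of the study for this gene, the nearest being siEIF3G input 1. The knockdown difference was -0.64 in polysomal RNA (SE 0.22, limma adjusted p = 0.65), leaving 63.5% of the control mean, and -0.36 (SE 0.22) in input RNA, leaving 77.6%. Over the 26 alternatives the polysomal difference stayed between 0.59 and 1.22 log2 units below the median of all genes, and the adjusted p ranged from 0.226 to 1. Leaving out 1 input library, or changing only the moderation, could not move that difference. The loading change was -0.28 (95% interval -0.95 to 0.39). Relative to EIF4E the inhibitor's mRNA was in excess everywhere, with EIF4EBP1 over EIF4E ratios from 6.45 in siCtrl input 3 to 50.7 in siCtrl polysomal 1.

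EIF4G1 encodes the main scaffold of eIF4F. In siCtrl input RNA it was at 57.4, 126 and 161 TPM, and in siCtrl polysomal RNA at 52.5, 27.5 and 19.9 TPM. The groups did not overlap, but the lowest input and highest polysomal values, both of replicate 1, were close. The difference was -1.74 (SE 0.49, limma adjusted p = 0.0326), and it was called in 16 of 26 alternatives. With knockdown the polysomal values were 41.9, 55.9 and 114 TPM, of which the highest was siEIF3G polysomal 3, and the input values were 107, 69.7 and 156 TPM. The knockdown difference in polysomal RNA was 1.05 (95% interval -0.01 to 2.10, adjusted p = 0.65 by limma) and that in input RNA was -0.00 (95% interval -1.06 to 1.05).

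EIF4G2 encodes DAP5, a shorter eIF4G relative that lacks the eIF4E-binding region. Its mRNA was at 57.5, 191 and 295 TPM in siCtrl input and 30.8, 56.7 and 35.6 TPM in siCtrl polysomal RNA, without overlap (-1.88, SE 0.60, limma adjusted p = 0.0409). In knockdown cells it was at 245, 74.6 and 230 TPM in input and 63.4, 50.9 and 143 TPM in polysomal RNA, where siEIF3G polysomal 3 exceeded siEIF3G input 2. EIF4G3, a paralog of EIF4G1 with a similar domain order, was the least abundant member, at 2.63, 16.6 and 26.6 TPM in siCtrl input RNA and 1.28, 2.43 and 0.87 TPM in siCtrl polysomal RNA. All its control polysomal values were below its lowest input value, and the difference was -2.31 (SE 0.77, limma adjusted p = 0.0424). The pseudocount of 1 TPM understates fold changes at such levels: the ratio of mean TPM, polysomal over input, was 0.0998 for EIF4G3 and 0.226 for EIF4G2. With knockdown EIF4G3 was at 21.8, 3.63 and 14.7 TPM in input and 3.04, 1.95 and 8.95 TPM in polysomal RNA, with overlap. Knockdown differences in polysomal RNA were 0.95 (SE 0.60) for EIF4G2 and 1.01 (SE 0.77) for EIF4G3, and neither gene's 95% interval excluded 0.

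EIF4A1 encodes the main helicase of eIF4F. Its mRNA was at 487, 1006 and 1220 TPM in siCtrl input RNA and at 1752, 847 and 678 TPM in siCtrl polysomal RNA, with the highest value in siCtrl polysomal 1 and the lowest in siCtrl input 1. The groups overlapped, and the difference was 0.25 (SE 0.42). In knockdown cells the input values were 813, 676 and 1594 TPM and the polysomal values were 1338, 1432 and 1730 TPM. These overlapped through siEIF3G input 3 alone, and the difference was 0.64 (95% interval -0.26 to 1.54). EIF4A1 was the only member with a positive fraction difference in either siRNA group as deposited, and with size factors it was called higher in control cells, at a difference of 1.35; its adjusted p ranged from 0.0259 to 0.879 over the 26 alternatives. EIF4A1 has processed pseudogenes, a near-identical paralog in EIF4A2 and a read-through transcript with its neighbour SENP3, so the split of reads among these copies by the authors' counting is uncertain.

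EIF4A2 encodes a helicase close in sequence to EIF4A1. It was at 18.3, 68.0 and 108 TPM in siCtrl input RNA and at 16.1, 18.8 and 10.7 TPM in siCtrl polysomal RNA, where only siCtrl polysomal 2 exceeded an input library, siCtrl input 1. The difference was -1.73 (SE 0.59, limma adjusted p = 0.0436). In knockdown cells it was at 112, 29.9 and 87.9 TPM in input and at 36.2, 35.7 and 52.9 TPM in polysomal RNA. Every knockdown polysomal value exceeded every control polysomal value, and the difference was 1.41 (95% interval 0.13 to 2.68, limma adjusted p = 0.65), a ratio of means of 2.74. In input RNA the knockdown difference was 0.37 (SE 0.59), and the loading change was 1.04 (95% interval -0.76 to 2.83).

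EIF4B encodes a cofactor that stimulates the eIF4A helicase and binds RNA. Its mRNA was at 40.4, 184 and 285 TPM in siCtrl input RNA and at 26.9, 27.3 and 12.3 TPM in siCtrl polysomal RNA, so the polysomal libraries held 13.1% of the input mean. The difference of -2.56 (SE 0.65, limma adjusted p = 0.0267) was the most negative of the 10, and it was called in 17 of 26 alternatives. In knockdown cells the values were 198, 62.8 and 244 TPM in input and 48.1, 51.1 and 82.7 TPM in polysomal RNA, 36.0% of the input mean, with overlap between siEIF3G polysomal 3 and siEIF3G input 2. All knockdown polysomal values were above all control polysomal values, with a difference of 1.45 (95% interval 0.04 to 2.86, limma adjusted p = 0.65) and a ratio of means of 2.73. In input RNA the ratio of means was 0.993 and the difference 0.17 (SE 0.65). The loading change of EIF4B, 1.28, was the most positive of the members, and its 95% interval ran from -0.72 to 3.27.

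EIF4H encodes a smaller cofactor that acts on eIF4A like part of eIF4B. It was at 159, 390 and 500 TPM in siCtrl input RNA and at 172, 163 and 124 TPM in siCtrl polysomal RNA, where siCtrl input 1 lay inside the polysomal range. The difference of -1.05 (SE 0.43, limma adjusted p = 0.0606) just missed the threshold. It passed without siCtrl input 1, a setting in which 7185 of the 10605 genes were called. In knockdown cells it was at 318, 249.9 and 541 TPM in input and 191, 140 and 328 TPM in polysomal RNA, with overlap (-0.76, SE 0.43). Knockdown differences were 0.16 (SE 0.43) in input and 0.44 (SE 0.43) in polysomal RNA.

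Ratios between members of the same library do not depend on how libraries are scaled to each other. There were 7 ratios in 4 comparisons, 28 exact permutation tests in all, and 3 libraries against 3 cannot give a two-sided p below 0.1. Groups were free of overlap in 0 of 7 ratios for knockdown in input RNA, 3 of 7 for knockdown in polysomal RNA, 3 of 7 between fractions in siCtrl cells and 2 of 7 in siEIF3G cells. For each of these 8 the exact permutation p was 0.1, the smallest possible, and the Benjamini-Hochberg adjusted p was 0.35. Ratios of other gene pairs were not computed, so there is no background share for these counts. They are not read as particular to the members. For single genes the shares without overlap were 3.68%, 29.2%, 45.8% and 22.1%, in the same order of comparisons.

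The ratio of the helicase pair did not overlap between fractions in either siRNA group. EIF4A2 over EIF4A1 was 0.0375, 0.0676 and 0.0883 in siCtrl input RNA and 0.00918, 0.0222 and 0.0158 in siCtrl polysomal RNA. In knockdown cells it was 0.138, 0.0443 and 0.0551 in input and 0.0271, 0.0249 and 0.0306 in polysomal RNA. Each polysomal value was below each input value of the study, and each knockdown polysomal value was above each control polysomal value. The log2 ratio differed by -2.04 between fractions in control cells, by -1.34 in knockdown cells and by 0.89 between siRNAs in polysomal RNA. EIF4A1 thus held 87.9% to 96.4% of the summed TPM of this pair in input libraries and 97.0% to 99.1% in polysomal ones.

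EIF4B over EIF4A1 gave the same order. It was 0.0830, 0.182 and 0.233 in siCtrl input RNA and 0.0154, 0.0322 and 0.0182 in siCtrl polysomal RNA, and 0.243, 0.0929 and 0.153 in siEIF3G input RNA against 0.0360, 0.0357 and 0.0478 in siEIF3G polysomal RNA. The log2 ratio differed by -2.87 and -1.94 between fractions and by 0.92 between siRNAs in polysomal RNA. Both ratios share EIF4A1 as denominator, so they are not independent. The cofactor pair EIF4H over EIF4B was 3.93, 2.12 and 1.76 in siCtrl input RNA and 6.38, 5.99 and 10.1 in siCtrl polysomal RNA, and stood at 3.96, 2.75 and 3.97 in siEIF3G polysomal RNA, below all control polysomal values. Its siEIF3G input values, 1.61, 3.98 and 2.21, overlapped those of siCtrl input and of siEIF3G polysomal RNA. For the scaffold and cap-binding pairs (EIF4G2 over EIF4G1, EIF4G3 over EIF4G1, EIF4E2 over EIF4E and EIF4EBP1 over EIF4E) the groups overlapped in every comparison.

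**Figure D5:**
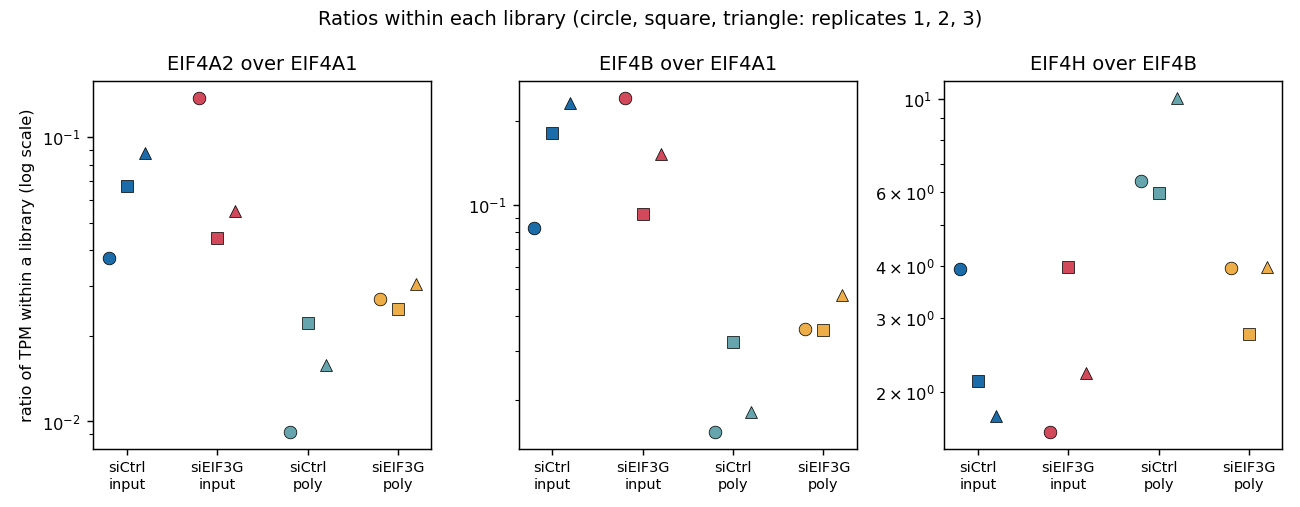
Ratio of TPM between members within each library (vertical axis, log scale) for the helicase pair, EIF4B over EIF4A1 and the cofactor pair, by group (horizontal axis; poly is polysomal RNA). In the left and middle panels all polysomal points lie below all input points, and siEIF3G polysomal points lie above siCtrl polysomal points.

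Around the members, 30 genes whose products act on eIF4F were followed as a list, of which 28 were tested: other cap-binding proteins and 4E-BPs, poly(A)-binding partners, and kinases and inhibitors. In control cells 10 of the 28 were lower in polysomal RNA and 1 was higher by limma (all genes 28.9% lower and 7.98% higher), with a list median of -1.49 against -0.96 for all genes. The poly(A)-binding protein genes PABPC1 (-3.25, adjusted p = 0.0177) and PABPC4 (-2.37, adjusted p = 0.021) had the most negative differences by limma, followed by LARP1 (-2.36), which binds the leaders of ribosomal protein mRNAs, CYFIP1 (-2.27), an eIF4E-binding partner of FMRP, and MTOR (-2.27), the kinase that phosphorylates 4E-BP1. The others called lower were the DEAD-box helicase gene DDX3X (-2.20), GIGYF2 (-2.18), whose product works with 4EHP, the nuclear cap-binding genes NCBP1 (-1.97) and NCBP3 (-1.71), and EIF4EBP2 (-1.34), and the gene called higher was the kinase gene RPS6KA1 (1.305). PABPC1 was at 146, 664 and 1036 TPM in siCtrl input RNA and at 36.8, 86.1 and 34.8 TPM in siCtrl polysomal RNA. The spread between its input libraries was thus as wide as that of EIF4B, with siCtrl input 1 again the lowest.

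In siEIF3G cells 0 of these 28 genes were called between fractions (6 had an unadjusted p under 0.05). For knockdown 0 were called in input RNA (1 under 0.05 unadjusted), 0 in polysomal RNA (4) and 0 for the loading change (0). The smallest p in both knockdown comparisons belonged to EIF4EBP3, the third 4E-BP gene, which was chosen for naming by that rank. EIF4EBP3 was at 16.3, 14.7 and 13.4 TPM in siCtrl input RNA and 8.39, 10.3 and 5.03 TPM in siEIF3G input RNA, and at 16.9, 17.5 and 18.3 against 9.0, 7.86 and 11.1 TPM in polysomal RNA. Its knockdown values lay below its control values in both fractions, with differences of -0.87 in input (SE 0.33, limma adjusted p = 1) and -0.86 in polysomal RNA (SE 0.33, limma adjusted p = 0.65). A read-through transcript joins EIF4EBP3 to its neighbour ANKHD1, so its reads are uncertain. After EIF4EBP3 the smallest p in input RNA were those of PAIP2 (-0.97, SE 0.62), an inhibitor of poly(A)-binding protein, RPS6KB2 (-0.50, SE 0.32), an S6 kinase gene, and MKNK2 (-0.40, SE 0.29), whose product phosphorylates eIF4E. In polysomal RNA they were CYFIP1 (1.34, SE 0.55), MKNK2 (-0.71, SE 0.29) and DDX3X (1.71, SE 0.76). The list medians were -0.10 in input, 0.52 in polysomal RNA and 0.69 for the loading change, beside -0.05, 0.33 and 0.38 for all genes. EIF4E3, the other cap-binding paralog, was listed at 0 to 0.02 TPM and was not tested.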

How the data were processed

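Per the labels' protocols, RNA was selected with oligo(dT) beads and sequenced on a DNA nanoball platform. The authors deposited TPM per gene. RSEM 1.3.1 and the build GRCh38.p13 are named in the submitters' processing notes, and for the aligner, annotation and filters nothing is given in the sources used here. The depth of each library is therefore unknown, and no counting interval is given. TPM were used as deposited, as log2(TPM + 1), for the 10605 genes that averaged 1 TPM or more. A model of 4 group means was fitted to all 12 libraries by limma 3.58.1 (R 4.3.3), using the mean-variance trend. Benjamini-Hochberg adjustment covered all tested genes of a comparison, and genes under 0.05 were called. No libraries of a group were identical over all genes. The fit was tested on simulated data. Ratios were tested by two-sided exact permutation (SciPy 1.17.1) and adjusted over 28 tests. Named genes were the members, EIF3G, partners and regulators of eIF4F past the threshold or with the 4 smallest p in a knockdown comparison, and the 3 genes most correlated with each of EIF4E, EIF4G1, EIF4A1 and EIF4EBP1. Some genes covered by these choices are not reported here. Members and gene lists were chosen with earlier results of these data known. Alternatives changed the pseudocount, filter, scaling, moderation, samples fitted and replicate block, and 1, leaving out 3 libraries, was chosen after seeing the data. Promoter sequences are from RefSeq (GRCh38.p14).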

Additional observations from a re-analysis of the deposited data

How the results depend on the processing

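Depth is unknown, groups have 3 libraries, and 3 libraries lie nearer to the other fraction. Of the 5 comparisons, the count of members called stayed at 0 for both knockdown comparisons and the loading change under all alternatives run. The interaction fit has no version with only the groups compared, since it uses all 12 libraries.

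For siCtrl polysomal against input RNA, 7 members and 3912 genes were called. Pseudocount 5 gave 2 members and 1408 genes, no filter on low values 0 and 1256, size factors 3 and 4661, and only the groups compared 0 and 610. Leaving out 1 library or 1 replicate number gave 0 to 8 members and 5 to 7185 genes. Leaving out the 3 libraries, a choice made after seeing the data and one that widens the difference between fractions by its construction, gave 7960 genes in siCtrl cells, and 8 members and 7541 genes in siEIF3G cells (main: 0 and 333). For siEIF3G cells size factors gave 50 genes, the fit without the trend 149, only the groups compared 68, and leave-outs 8 to 788.

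The labels do not say whether equal replicate numbers mark a shared lysate, and deviations of same-numbered libraries correlated at -0.69 to 0.71, so the numbers were not treated as pairing. The fit with the replicate number as a block called 3 members (EIF4G1, EIF4G2 and EIF4B) and 2121 genes in siCtrl cells.

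For knockdown 2 genes were called in each fraction. In input RNA the fit without the trend and the fit of only the groups compared called 1, and the 9 libraries 5. In polysomal RNA no filter, size factors, quantile normalization, the fit without the trend and only the groups compared called 1, and the 9 libraries 4. Leave-outs called 1 to 2 in both.

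Of the members that changed sign under an alternative, EIF4E2 between the siCtrl fractions was the only 1 called as deposited. Size factors gave -0.10 for EIF4H (knockdown, polysomal), -0.16, -0.10, -0.41 and -0.26 for EIF4A1, EIF4E, EIF4E2 and EIF4H (loading change), 0.15, 1.06 and 0.050 for EIF4E2, EIF4EBP1 and EIF4H (fractions, siCtrl) and 0.24 for EIF4EBP1 (fractions, siEIF3G). Quantile normalization gave 0.0432 and 0.0044 for EIF4G1 and EIF4G3 (knockdown, input). The 9 libraries gave -0.0562, -0.0030 and -0.0908 for EIF4B, EIF4G2 and EIF4H (knockdown, input), and -0.14 and 0.0842 for EIF4A1 and EIF4EBP1 (fractions, siCtrl). The cause was not tested.

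Leave-out ranges that crossed 0 were, for knockdown in input RNA, -0.21 to 0.56 (EIF4A1), -0.72 to 1.13 (EIF4A2), -0.88 to 1.02 (EIF4B), -1.39 to 0.0381 (EIF4E), -0.45 to 0.42 (EIF4G1), -0.85 to 0.86 (EIF4G2), -1.37 to 0.92 (EIF4G3) and -0.33 to 0.55 (EIF4H). In polysomal RNA they were -0.49 to 0.14 (EIF4E) and -0.0342 to 0.77 (EIF4H). For the loading change they were -0.0811 to 1.15 (EIF4A1), -0.10 to 1.29 (EIF4E), -0.21 to 0.71 (EIF4E2), -0.0581 to 2.47 (EIF4G3) and -0.21 to 0.85 (EIF4H). Between siCtrl fractions they were -0.55 to 0.80 (EIF4A1) and -0.30 to 0.21 (EIF4EBP1). The number of ratios without overlap was 8 and ranged from 8 to 12 over leave-outs. Leaving out a library cannot create overlap, so this count could not fall below 8 and is no check of stability.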

Other observations

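A list of 14 mRNAs known for translation that depends on eIF4E, 13 of them tested, had a median polysomal minus input difference of -1.43 in siCtrl cells, beside -0.96 for all genes. In limma's test 4 of the 13 were lower in polysomal RNA and 1 was higher, close to the shares of all genes (28.9% lower and 7.98% higher). Those lower were BIRC5 (-1.06), an inhibitor of apoptosis, the transcription factor genes MYC (-1.81) and HIF1A (-2.02), and VEGFA (-1.76), an angiogenic growth factor. The gene called higher was CCND3, a D-type cyclin (1.27, SE 0.30, limma adjusted p = 0.0232). For knockdown 0 of the 13 were called in input RNA (0 had an unadjusted p under 0.05) and 0 in polysomal RNA (1 under 0.05, MYC at 1.41, SE 0.53, limma adjusted p = 0.65). The medians were -0.02 and 0.72, beside -0.05 and 0.33 for all genes. Between fractions in siEIF3G cells 0 were called and 2 had an unadjusted p under 0.05.

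The genes most like a member over the 12 libraries, by Pearson correlation of log2(TPM + 1), were COMMD8 and CEP70 for EIF4E (0.99 and 0.98) and GTF3C1, MCM3AP and DIAPH1 for EIF4G1 (0.99, 0.98 and 0.98). For EIF4A1 they were CHTOP, GMDS and NDUFA9 (0.98, 0.97 and 0.97), and for EIF4EBP1, HCFC1R1, POP7 and MSRB1 (0.92, 0.92 and 0.91). These correlations share the difference between fractions and the libraries that stand apart, and are descriptions.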
